A study of Rattus norvegicus with 16 samples.

Results

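The comparison described here set every osteoarthritic knee cartilage library of a rat study, whatever its treatment, against the healthy libraries, and asked which changes were carried by the osteoarthritic joint as a whole. The members were chosen from the labels alone: 12 osteoarthritic and 4 healthy libraries, which are all 16 libraries of the series, measured over every gene of the deposited table. Of 23552 genes, 14337 had at least 1 FPKM (fragments scaled to transcript length and library size) in at least 4 libraries and were tested. All rats were 10 weeks old, and no strain, sex or genotype is named. The 4 healthy libraries carry the library name Sham. The 12 osteoarthritic libraries form 3 arms of 4: cartilage labelled only as osteoarthritic, with the library name PBS; osteoarthritic cartilage after hyaluronic acid (HA), cells and drug; and osteoarthritic cartilage after coacervate, cells and drug. These are called the osteoarthritic, HA and coacervate arms. A coacervate is a dense, polymer-rich liquid phase. Which drug, cells and polymer were used is not stated in the labels, nor how osteoarthritis was brought about or how long before sampling. They do not say whether replicates were separate animals, so the p-values measure only the spread between these libraries, which may be partly technical.

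Articular cartilage is made by chondrocytes, which embed themselves in type II collagen and the proteoglycan aggrecan. Osteoarthritis is known for the breakdown of that matrix by proteases, and for a synovium and joint margin in which fibroblasts lay down fibrous matrix and macrophages gather. Tissue cut from a small joint usually carries some of these neighbours, along with bone and marrow. In bulk RNA, fewer cells of a type and less RNA per cell cannot be told apart.

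Library totals ran from 36988722 counts in healthy replicate 3 to 50725189 in coacervate replicate 1. Chondrocyte genes were present in both groups: the mean FPKM of Col2a1 was 359.9 in healthy and 378 in pooled libraries, and that of Acan was 22.5 and 24.1. Col1a1, the collagen of bone and fibrous tissue, stood higher at 1398 and 1619 FPKM. Haemoglobin genes took 13.5% ± 2.12 (SD, n = 4) of counts in healthy and 13.5% ± 3.54 (SD, n = 12) in pooled libraries, and no difference was detected (exact permutation test, two-sided, p = 0.988). Some libraries stood apart. In osteoarthritic replicates 2 and 3 the mean log2 level of ribosomal protein genes, relative to the mean over libraries, was 0.97 and 0.78, against -0.39 to 0.14 in the other 14. In healthy replicate 3, Rbp4 (retinol transport), Vtn (vitronectin) and Stard10 (lipid transfer) were 11.8, 18.4 and 15.3 times their next highest library. Coacervate replicate 3 had 2.58% of its counts in skeletal muscle genes, the highest of all libraries.

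Across all tested genes, 20 passed the pooled comparison at an adjusted p under 0.05, 0.139% of those tested (edgeR's quasi-likelihood test with Benjamini-Hochberg adjustment, contrast of the mean of the 3 arms minus healthy). Of these, 16 rose (0.112%) and 4 fell (0.0279%). The rises were the matrix and matrix-associated genes Dpt, Mfap5, Ccn5 and LOC102553715, the secreted signalling genes Angptl1, Sfrp2 and Sfrp4, the macrophage-associated genes Trem2 and Apoe, the protease gene Ctsl, and Stmn2, Pdlim4, Crabp2, Gpx7, Pid1 and Pofut2. The falls were Arrdc3, Hes1, LOC103690326 and the pseudogene AABR07053500.1. Rises were 1.32- to 4.43-fold, and the falls left 0.548 to 0.656 of the healthy level. The median log2 fold change of all tested genes was 0.01. Of all 14337 tested genes, 7471 were higher and 6866 lower in the pooled libraries, whatever their p. The counts of higher and lower list members given later are to be read beside that split.

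**Figure D1:**
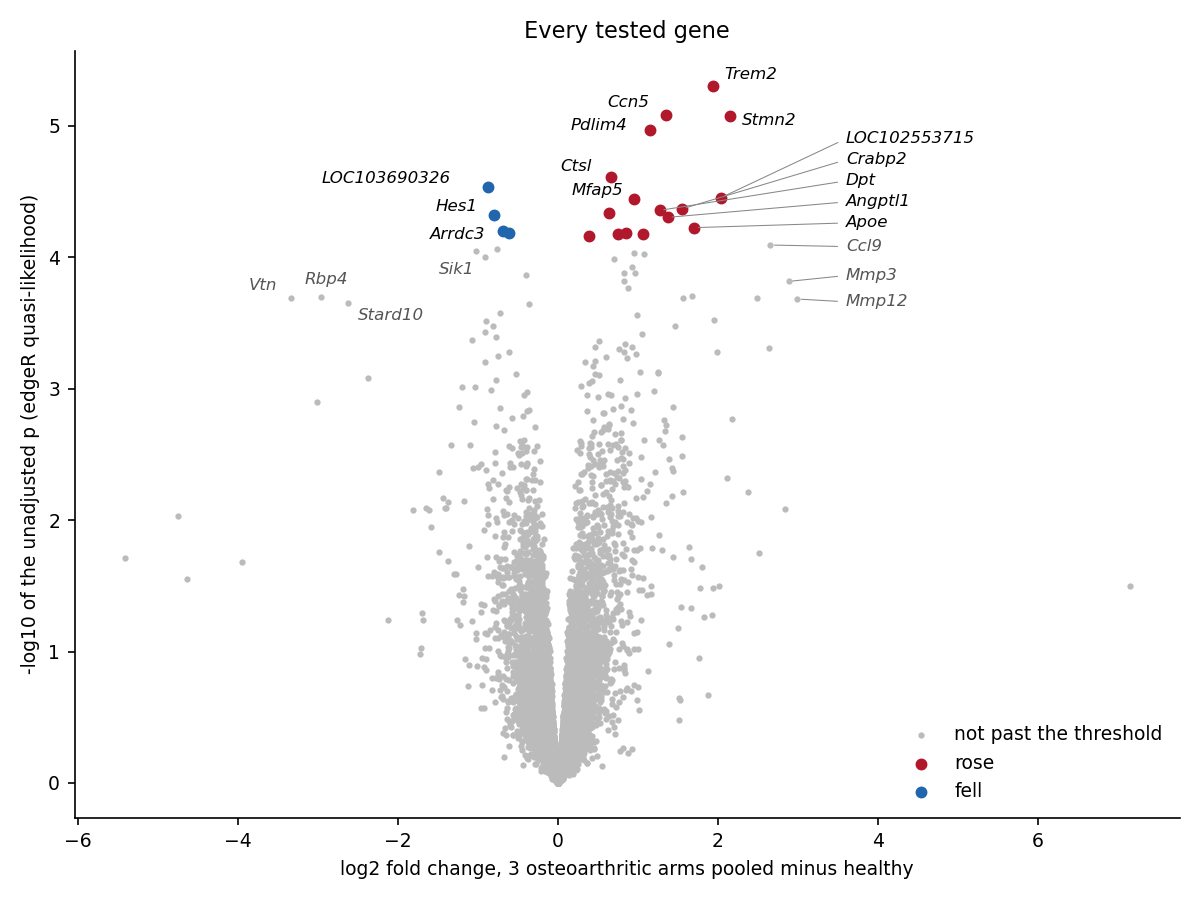
Each point is 1 of 14337 tested genes, with its log2 fold change (pooled minus healthy) on the x axis and -log10 of the unadjusted p on the y axis. The 16 genes that rose (red) and the 4 that fell (blue) form the upper edge, and Vtn, Rbp4 and Stard10 lie far to the left without passing.

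These calls sat close to the threshold. Trem2, Ccn5, Stmn2 and Pdlim4 had an adjusted p of 0.0388, and the other 16 genes all had 0.0495. The gene next in order had 0.0541, and 46 genes, 32 of them higher, were under 0.1. Without adjustment, 1103 genes had p under 0.05 (7.69%), 596 higher (4.16%) and 507 lower (3.54%). When any 1 of the 4 healthy libraries was left out, no gene passed by edgeR's test: the smallest adjusted p was then 0.0765 to 0.152, and 836 to 971 genes had an unadjusted p under 0.05. The same 20 genes kept their direction in all 30 alternative fits, with unadjusted p under 0.05 in each. These fits reuse all or most of the libraries by which the genes were selected, so this is not independent support. DESeq2 called 175 genes, the 20 among them.

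A second description used no test. For 49 genes (0.342% of those tested), the 12 pooled and the 4 healthy libraries did not overlap in CPM, the normalised level (counts relative to the TMM-adjusted library total). Of these, 34 were higher (0.237%) and 15 lower (0.105%) in the pooled libraries. Of the 20 genes that passed, 11 rises and 2 falls were among the 49. Genes annotated in the deposited table to the extracellular space, region or matrix made up 9 of the 16 rises, none of the 4 falls, 19 of the 34 higher non-overlapping genes (55.9%) and 3 of the 15 lower ones (20%), beside 6.42% of tested genes.

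Dpt, Angptl1, Sik1 and Arrdc3 were singled out for this comparison with earlier results of these data known. Dpt and Angptl1 rose, Arrdc3 fell, and Sik1 did not pass. Their promoters are given because Sik1 is a textbook target of cAMP signalling, whose response element can be looked for in sequence. The windows run from 250 bases before to 50 after the RefSeq start (GRCr8, another build than the rn6 of the count table), 5′ to 3′ on the gene's strand. Capitals mark the searched motifs: the cAMP response element TGACGTCA, its short form TGACG, and TATAAA, on both strands, where the short form also lies inside the full element.
Dpt, chr13:79656091-79656390, plus strand: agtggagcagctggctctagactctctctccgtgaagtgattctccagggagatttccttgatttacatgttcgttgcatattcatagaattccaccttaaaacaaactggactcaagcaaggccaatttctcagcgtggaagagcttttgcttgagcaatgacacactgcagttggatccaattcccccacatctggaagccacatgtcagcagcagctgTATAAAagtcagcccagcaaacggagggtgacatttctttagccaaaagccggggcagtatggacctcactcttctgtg
Angptl1, chr13:71513097-71513396, plus strand: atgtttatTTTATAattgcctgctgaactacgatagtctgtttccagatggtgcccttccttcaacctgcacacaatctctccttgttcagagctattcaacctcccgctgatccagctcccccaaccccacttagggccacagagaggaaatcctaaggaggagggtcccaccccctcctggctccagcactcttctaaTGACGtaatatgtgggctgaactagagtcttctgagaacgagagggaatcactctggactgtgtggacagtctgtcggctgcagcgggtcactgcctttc
Sik1, chr20:9958597-9958896, minus strand: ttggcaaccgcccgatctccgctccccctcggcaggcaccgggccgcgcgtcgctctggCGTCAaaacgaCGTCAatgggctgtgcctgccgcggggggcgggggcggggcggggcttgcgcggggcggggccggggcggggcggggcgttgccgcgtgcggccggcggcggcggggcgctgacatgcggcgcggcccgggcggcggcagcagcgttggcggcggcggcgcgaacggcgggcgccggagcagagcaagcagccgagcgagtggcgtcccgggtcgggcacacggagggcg
Arrdc3, chr2:12872952-12873251, plus strand: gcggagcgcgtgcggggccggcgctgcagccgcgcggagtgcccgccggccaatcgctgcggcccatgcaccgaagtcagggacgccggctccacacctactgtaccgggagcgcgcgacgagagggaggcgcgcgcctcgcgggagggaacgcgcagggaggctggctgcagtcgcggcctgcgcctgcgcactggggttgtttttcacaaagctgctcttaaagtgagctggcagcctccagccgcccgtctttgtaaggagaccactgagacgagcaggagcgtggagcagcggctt
Positions are counted from the start, negative before it. In the Dpt window TATAAA begins at -29. In the Angptl1 window TGACG begins at -50 and the reverse of TATAAA at -242. The Sik1 window holds 2 copies of the short element as CGTCA, beginning at -191 and -180, and the Arrdc3 window holds none of the 3 motifs. G and C made up 47.7% of the Dpt, 51.7% of the Angptl1, 81.3% of the Sik1 and 70.0% of the Arrdc3 window. The median over all 33469 windows was 51.7%. This difference is one of the 4 chosen genes only. Over the rises with a window the share ran from 47.7% (Dpt) to 73.7% (Pdlim4), and the fall Hes1 had 60.3%. The short element occurs in 21.2% of all windows, TATAAA in 14.22% and the full element in 1.83%. A match is a run of letters, not a shown binding site.

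Dpt encodes dermatopontin, a small protein that binds collagen fibrils and decorin in connective tissue. Its normalised CPM was 29.3, 48.4, 41.3 and 32.7 in the healthy libraries. It was 112, 62.5, 105 and 84.2 in the osteoarthritic arm, 96.5, 117, 112 and 86.6 in the HA arm, and 65.3, 68.6, 138 and 56.4 in the coacervate arm. Every osteoarthritic library lay above every healthy one, and coacervate replicate 3 stood far above the other libraries of its arm. Dpt rose by a log2 fold change of 1.27 ± 0.23 (SE), 2.42-fold, with an adjusted p of 0.0495 by edgeR. The 3 arms, each against healthy, gave log2 fold changes of 1.26 ± 0.26, 1.44 ± 0.26 and 1.11 ± 0.26 in the order osteoarthritic, HA, coacervate. The test for a difference among the arms gave an adjusted p of 0.702 by edgeR, which does not show that they are alike.

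Angptl1 encodes a secreted angiopoietin-like protein. Its CPM was 13.4, 12.6, 10.8 and 10.0 in the healthy libraries. It was 29.1, 22.6, 34.1 and 33.5 in the osteoarthritic arm, 28.5, 37.6, 31.9 and 29.8 in the HA arm, and 23.9, 26.2, 53.2 and 14.4 in the coacervate arm. The groups did not overlap, although coacervate replicate 4 came close to the highest healthy library. The coacervate arm was the most scattered, and its highest library was again replicate 3. Angptl1 rose by 1.38 ± 0.25 on the log2 scale, 2.60-fold, with an adjusted p of 0.0495. The 3 arms gave 1.35, 1.45 and 1.33, and the test among arms gave an adjusted p of 0.951. Of the 10 tested angiopoietin and angiopoietin-like genes Angptl1 alone passed. Angptl7 (0.92 ± 0.32) and Angptl2 (0.75 ± 0.26) had adjusted p = 0.40 by edgeR, and the median of the list was 0.01.

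Arrdc3 encodes an arrestin-domain adaptor that takes part in sorting membrane receptors, the beta-adrenergic receptors among them. Its CPM was 75.3, 59.0, 55.9 and 63.9 in the healthy libraries. It was 36.9, 33.4, 31.4 and 44.8 in the osteoarthritic arm, 34.8, 38.6, 37.1 and 37.8 in the HA arm, and 66.5, 47.8, 56.5 and 42.5 in the coacervate arm. All 8 libraries of the first 2 arms lay below healthy, whereas coacervate replicates 1 and 3 lay within the healthy range. Pooled, Arrdc3 fell by 0.61 ± 0.11 on the log2 scale, to 0.656 of the healthy level, with an adjusted p of 0.0495. By arm its log2 fold changes were -0.79 ± 0.14, -0.78 ± 0.14 and -0.25 ± 0.14, and the test among arms gave an adjusted p of 0.149. The other 4 tested genes of the arrestin-domain list, Txnip, Arrdc1, Arrdc2 and Arrdc4, did not pass, and their log2 fold changes ran from -0.16 to 0.04.

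Sik1 encodes a salt-inducible kinase that phosphorylates the CRTC coactivators of CREB, and is itself induced by cAMP. Its CPM was 90.8, 46.5, 61.7 and 86.9 in the healthy libraries. It was 39.6, 30.9, 26.7 and 35.7 in the osteoarthritic arm, 41.4, 33.1, 39.0 and 29.8 in the HA arm, and 52.6, 41.8, 60.1 and 29.8 in the coacervate arm. Healthy replicate 2 lay within the coacervate range, so the groups overlapped. The log2 fold change was -0.91 ± 0.18 with an adjusted p of 0.0551 by edgeR, so Sik1 did not pass. By arm it was -1.10, -0.997 and -0.63. In the list of 16 SIK, CREB and cAMP pathway genes none passed, 2 were higher and 14 lower, and the median was -0.07. Beside Sik1, the member with p under 0.05 before adjustment was Pde4b, a cAMP phosphodiesterase, at -0.36 ± 0.15.

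**Figure D2:**
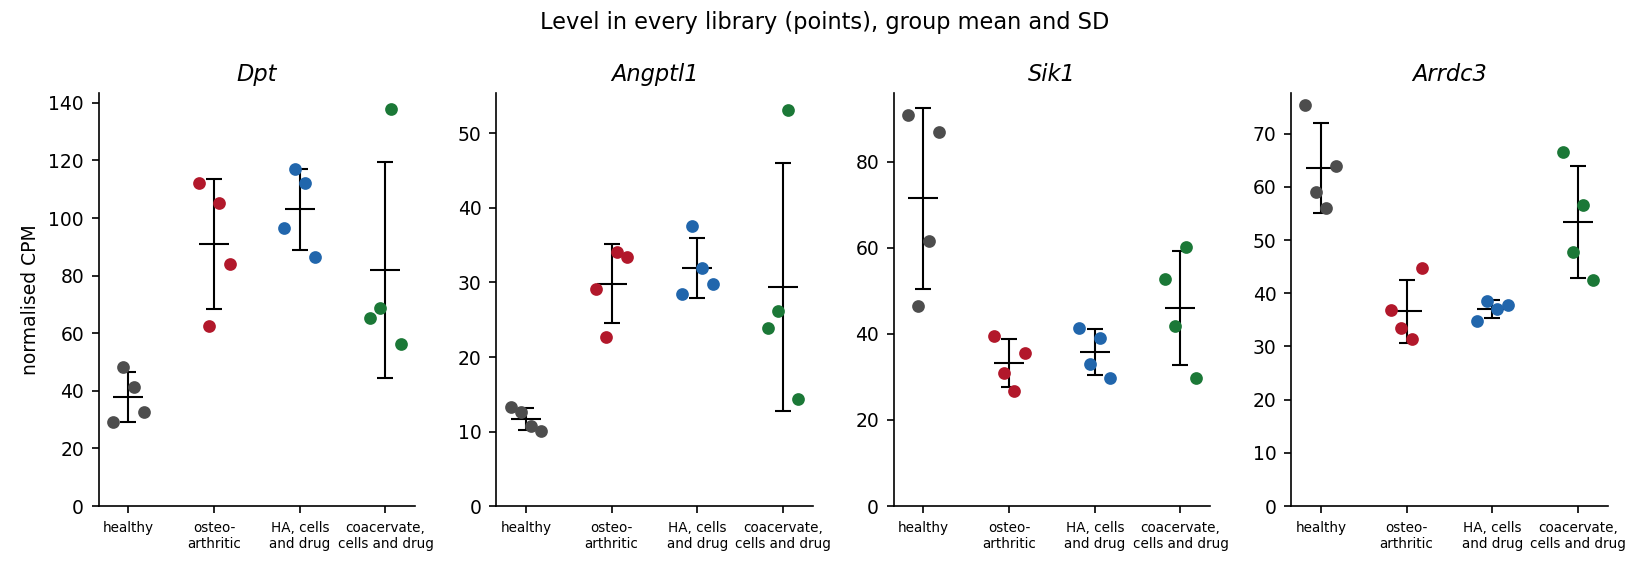
Normalised CPM of Dpt, Angptl1, Sik1 and Arrdc3 in every library (points) by group, with the group mean and SD. Dpt and Angptl1 do not overlap between healthy and the other 3 groups, and the coacervate points of Sik1 and Arrdc3 reach into the healthy range.

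Fibrous matrix genes were higher as a group. All 32 tested genes of the fibroblast and fibrous matrix list were higher in the pooled libraries, 19 of them at an unadjusted p under 0.05, against 4.16% of all tested genes that were higher at that level. Dpt, Mfap5, Sfrp2 and Sfrp4 rose and none fell. The median log2 fold change was 0.57, beside 0.01 for all tested genes, and by arm it was 0.54, 0.59 and 0.46. The list was chosen with earlier results of these data known, so its direction is not independent evidence.

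Mfap5 encodes a glycoprotein of elastic microfibrils. It had 12.4, 11.1, 9.58 and 9.70 CPM in the healthy libraries. It had 19.6 to 25.8 CPM in the osteoarthritic arm, 18.6 to 23.4 in the HA arm and 14.1 to 28.8 in the coacervate arm. There was no overlap. It rose 1.94-fold (log2 fold change 0.96 ± 0.17), with 1.06, 0.96 and 0.85 by arm.

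LOC102553715, which the deposited table describes as like microfibril-associated glycoprotein 4 (rn6 chromosome 10, 49000973 to 49003931), had 4.91, 3.81, 5.19 and 3.62 CPM in healthy libraries. It ranged from 6.99 to 31.2 with a median of 17.9 in the pooled ones, again without overlap, and rose 4.11-fold (log2 fold change 2.04 ± 0.36). Mfap4, on the same chromosome and similarly described, was at 0, 2.48, 2.17 and 0.107 CPM in healthy libraries and between 0.749 and 23.96 in the pooled ones. Its log2 fold change was 2.84 ± 0.94 with an adjusted p of 0.375, and it did not pass. How reads were divided between these near copies was not tested, so the values of each are uncertain.

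Ccn5 belongs to the CCN family of matrix-associated signalling proteins. It had 15.6, 10.5, 15.1 and 13.6 CPM in healthy libraries and 20.1 to 51.3 in pooled ones, with a median of 34.9. No library overlapped, and the rise was 2.55-fold (log2 fold change 1.35 ± 0.21, adjusted p = 0.0388 by edgeR). The osteoarthritic and HA arms both gave 1.55 and the coacervate arm 0.94, with an adjusted p of 0.282 among arms.

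Collagens of fibrous tissue were higher without passing. Col3a1, type III collagen, had 978, 1099, 1212 and 708 CPM in healthy libraries and 1225 to 4521 in pooled ones, a median of 2657. The groups did not overlap, although coacervate replicate 4, the lowest, was next to the highest healthy library. The log2 fold change was 1.46 ± 0.32 and the adjusted p 0.1001. Col14a1 (1.32 ± 0.37), Eln (elastin, 1.17 ± 0.40), Lox (lysyl oxidase, which cross-links collagen, 0.82 ± 0.25) and Dcn (decorin, 0.51 ± 0.19) had unadjusted p under 0.05 only. Col1a1 was at 0.23 ± 0.27 with an adjusted p of 0.908.

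The level of the whole list overlapped more than its named genes. Its mean log2 level, relative to the mean over libraries, was -0.73 to -0.32 in healthy libraries and -0.42 to 0.63 in pooled ones. Osteoarthritic replicate 2 and coacervate replicate 4 lay within the healthy range. The summed CPM of the list was 11797 to 17646 in healthy and 10142 to 26973 in pooled libraries, and Mfap4, in healthy replicate 1, was its only member at 0 counts anywhere. None of the 11 tested tendon and ligament genes passed. Of these, 10 were higher, 4 at an unadjusted p under 0.05, and the median was 0.36. The 1 lower member, the immediate early gene Egr1 at -0.75 ± 0.30, also had an unadjusted p under 0.05. Their summed CPM was 8597 to 13392 in healthy and 6412 to 17005 in pooled libraries. The part of tendon and other fibrous tissue in the matrix results was not tested.

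Among secreted inhibitors of Wnt signalling, 2 rose. Sfrp2 encodes a frizzled-related protein that binds Wnt ligands outside the cell. It had 20.5, 20.7, 19.0 and 17.1 CPM in healthy libraries. It had 48.0, 30.3, 37.3 and 38.5 in the osteoarthritic arm, 30.0, 32.6, 41.4 and 46.3 in the HA arm, and 40.7, 46.5, 69.2 and 26.6 in the coacervate arm. The healthy values were tight and the lowest pooled value was above them all. Sfrp2 rose 2.096-fold (log2 fold change 1.07 ± 0.20), and its coacervate value of 1.24 was above those of the osteoarthritic and HA arms, 0.997 and 0.96.

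Its relative Sfrp4 had 52.1, 39.2, 45.8 and 41.9 CPM in healthy libraries and 55.3 to 96.9 in pooled ones, with a median of 77.8. It rose 1.69-fold (log2 fold change 0.75 ± 0.14), by 0.95, 0.80 and 0.51 in the 3 arms. Dkk3 (dickkopf family) did not overlap either, with 38.6 to 40.4 CPM in healthy and 42.5 to 82.3 in pooled libraries, but its adjusted p was 0.210. Sfrp1 went the other way, at -0.30 ± 0.12, and did not pass. Of 24 tested Wnt pathway genes 2 rose, none fell, 9 were higher and 15 lower, and the median was -0.09. Axin2, a common readout of Wnt signalling, was at 0.12 ± 0.14.

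The macrophage-associated genes Trem2 and Apoe rose. Trem2, a lipid-sensing receptor of macrophages, had 5.70, 4.48, 2.45 and 4.50 CPM in healthy libraries. It had 20.9, 16.6, 23.8 and 25.2 in the osteoarthritic arm, 19.8, 39.2, 24.6 and 13.7 in the HA arm, and 7.52, 8.85, 12.2 and 5.69 in the coacervate arm. The first 2 arms were far above healthy, and the coacervate arm lay between, with replicate 4 level with healthy replicate 1. Pooled, Trem2 rose 3.85-fold (log2 fold change 1.94 ± 0.29, adjusted p = 0.0388 by edgeR). By arm it was 2.33 ± 0.32, 2.50 ± 0.33 and 0.998 ± 0.32, with an adjusted p of 0.120 among arms.

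Apoe, the lipid carrier apolipoprotein E, had 322, 227, 574 and 222 CPM in healthy libraries. It had 1349, 1263, 1393 and 2648 in the osteoarthritic arm, 1313, 2619, 2292 and 1326 in the HA arm, and 391, 462, 563 and 272 in the coacervate arm. The coacervate arm lay entirely within the healthy range. Apoe passed the pooled comparison at 1.71 ± 0.31 (log2), an average of 2.31 ± 0.36, 2.49 ± 0.36 and 0.33 ± 0.35, so the pooled value describes no single arm well. The test among arms gave an adjusted p of 0.105, the smallest of any gene and shared with Ctsl.

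Ctsl, the lysosomal protease cathepsin L, also had its smallest rise in the coacervate arm. It had 127, 133, 131 and 114 CPM in healthy libraries. It had 227, 247, 273 and 217 in the osteoarthritic arm, 209, 308, 205 and 211 in the HA arm, and 139, 137, 162 and 127 in the coacervate arm. Only coacervate replicate 4 reached into the healthy range. The pooled rise was 1.58-fold (log2 fold change 0.66 ± 0.11), from 0.93, 0.89 and 0.16 by arm, with an adjusted p of 0.105 among arms.

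Of 23 tested macrophage genes, Trem2 and Apoe rose and none fell. In that list 16 were higher, 10 of them at an unadjusted p under 0.05, against 4.16% of all tested genes higher at that level. The median was 0.24, and by arm 0.54, 0.41 and -0.01. Scimp, an adaptor of antigen-presenting cells, did not overlap (1.72 to 2.76 CPM in healthy, 3.10 to 21.3 in pooled libraries), but its log2 fold change of 1.67 ± 0.35 had an adjusted p of 0.0747. Lgals3 (galectin 3) was at 0.82 ± 0.16 with an adjusted p of 0.0633. Csf1r (0.00 ± 0.15) and Adgre1 (-0.10 ± 0.19), which define macrophages broadly, were near 0. The summed CPM of the list was 7231 to 9345 in healthy libraries, 11399 to 16474 in the osteoarthritic arm, 11293 to 17036 in the HA arm and 6997 to 8612 in the coacervate arm. Marco was its only member at 0 counts in any library. The part of macrophage content in the changes of Trem2, Apoe and Ctsl was not tested.

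Many calls were smaller in the coacervate arm. The coacervate arm had the lowest mean of the 3 arms for 15 of the 16 rises (93.8%), and for 39.4% of all tested genes. It had the highest mean for 3 of the 4 falls (75%, against 37.9%). LOC103690326 was the exception among falls, as Sfrp2 was among rises. Without adjustment, 10 of the 16 rises and 2 of the 4 falls had p under 0.05 among the arms, beside 2180 of all tested genes (15.2%). No gene passed that test after adjustment by edgeR (0%), whereas DESeq2 called 567 and limma on log2(FPKM + 1) called 1. The separate comparisons, which share the healthy libraries, called 72 genes in the osteoarthritic arm (0.502%), 23 in the HA arm (0.16%) and none in the coacervate arm (0%). Without adjustment, 2548 (17.8%), 1183 (8.25%) and 552 genes (3.85%) had p under 0.05 by edgeR. In the coacervate arm DESeq2 called 18 genes and limma none. A gene that passed in 1 arm is not shown to differ from another arm by that.

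**Figure D3:**
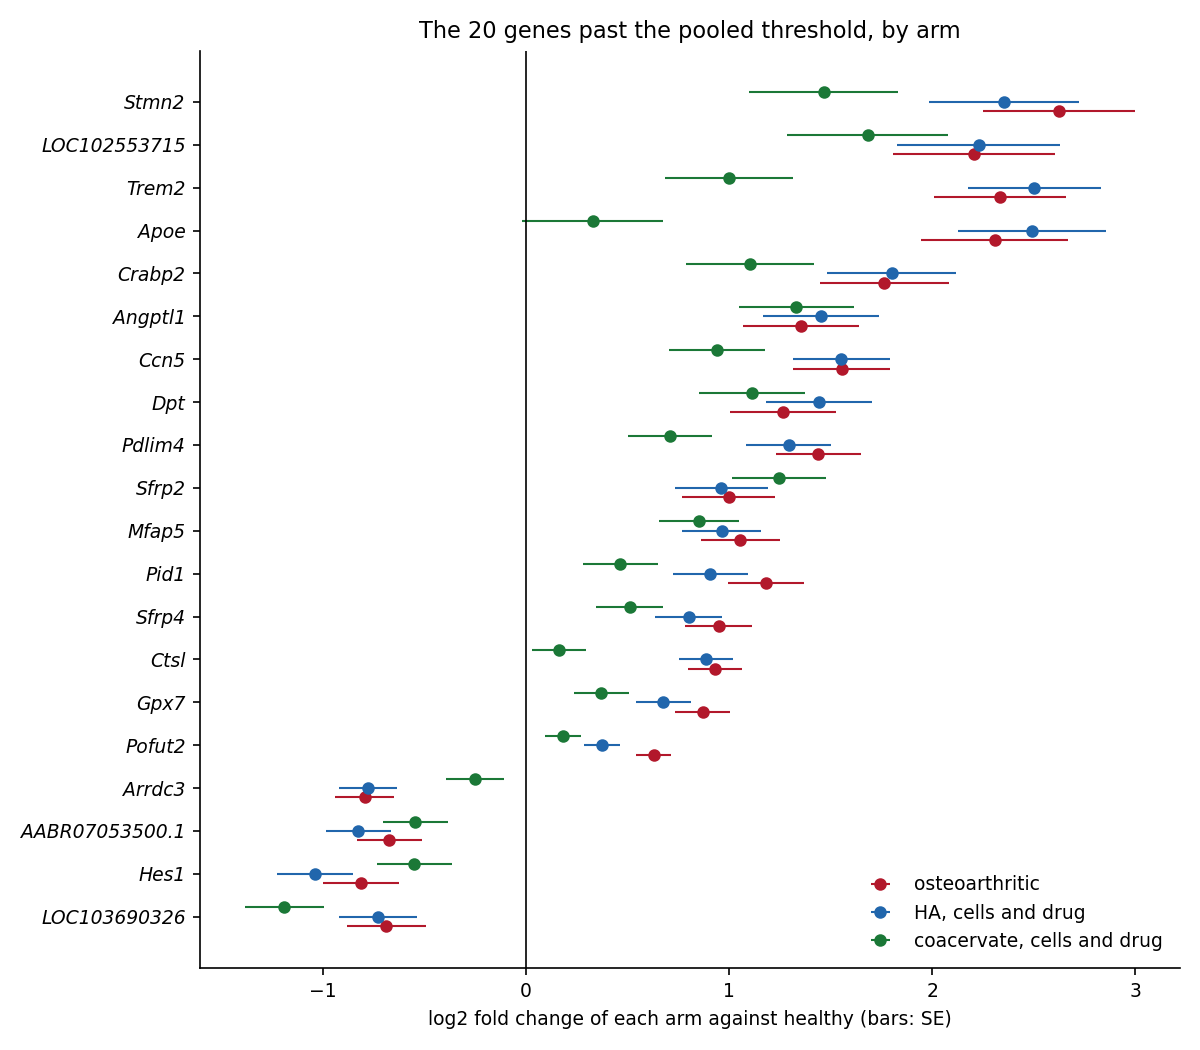
For each of the 20 genes that passed, the log2 fold change of each arm against healthy (points) with its SE (bars). The arms lie close together for Dpt, Angptl1, Mfap5 and Sfrp2, while the coacervate points of Apoe and Ctsl sit near 0.

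Among matrix proteases, Mmp3 and Mmp12 were much higher without passing. Mmp3, stromelysin 1, had 5.00, 7.34, 5.73 and 5.33 CPM in healthy libraries. It had 63.0, 21.3, 41.5 and 137 in the osteoarthritic arm, 36.8, 134, 81.7 and 14.7 in the HA arm, and 17.8, 18.3, 29.3 and 8.22 in the coacervate arm. No library overlapped, but the pooled values were widely spread. The log2 fold change was 2.88 ± 0.58, 7.38-fold, with an adjusted p of 0.0665 by edgeR. By arm it was 3.49, 3.51 and 1.65.

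Mmp12, the macrophage elastase, was at 2.99 ± 0.62 (adjusted p = 0.0747), with 0.671 to 6.52 CPM in healthy and 5.87 to 63.3 in pooled libraries. Mmp2, gelatinase A, was at 1.02 ± 0.24 (adjusted p = 0.149) without overlap, from 102 to 158 CPM in healthy and 167 to 410 in pooled libraries. Mmp13, the main collagenase of cartilage, pointed down: it had 1204, 696, 794 and 1224 CPM in healthy libraries and 416 to 838 in pooled ones, a log2 fold change of -0.60 ± 0.18 with an adjusted p of 0.282. The aggrecanase gene Adamts5 was at 0.23 ± 0.21. Of 28 tested proteases and inhibitors only Ctsl passed, 21 were higher and 7 lower, and the median was 0.33, from 0.43, 0.42 and 0.19 by arm.

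Among chemokines, Ccl9 had 3.76, 0.820, 1.24 and 1.86 CPM in healthy libraries and 3.87 to 39.8 in pooled ones. The lowest pooled library, coacervate replicate 4, was just above healthy replicate 1. Its log2 fold change of 2.66 ± 0.50 had an adjusted p of 0.0541. Il1b, interleukin 1 beta, was at 0.12 ± 0.26, and by arm at 0.56, 0.06 and -0.25. Of 21 tested inflammatory mediator genes none passed, 13 were higher and 8 lower. Their median was 0.09, and by arm 0.35, 0.14 and -0.20. C1s, a protease of the classical complement pathway, had 69.1 to 110 CPM in healthy and 109 to 276 in pooled libraries, a log2 fold change of 1.08 ± 0.21 with an adjusted p of 0.0541. Of 20 complement genes none passed, and 15 were higher.

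The other rises encode intracellular proteins of varied roles. Stmn2, a microtubule-binding stathmin best known in neurons, had the largest fold of all calls. It had 1.88, 1.75, 1.01 and 1.16 CPM in healthy libraries. It had 8.59, 8.33, 8.99 and 10.0 in the osteoarthritic arm, 3.37, 9.95, 9.80 and 6.65 in the HA arm, and 2.97, 5.50, 5.63 and 1.98 in the coacervate arm. The groups did not overlap, by a narrow margin at coacervate replicate 4. The rise was 4.43-fold (log2 fold change 2.15 ± 0.33, adjusted p = 0.0388). Its counts were low, between 39 and 496, so counting error adds to its spread.

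Pdlim4, an actin-associated PDZ and LIM domain protein, had 6.27 to 8.12 CPM in healthy and 8.77 to 24.2 in pooled libraries and rose 2.21-fold. Crabp2, which carries retinoic acid to its receptors, had 2.42 to 4.23 and 3.91 to 17.0 CPM and rose 2.94-fold. Only coacervate replicate 4 lay inside the healthy range. Another tested row with the symbol Crabp2 did not pass, and how reads were divided between these rows was not tested. Gpx7, an oxidoreductase of the endoplasmic reticulum, had 9.44 to 11.1 and 11.5 to 20.6 CPM and rose 1.56-fold. Pid1, an adaptor with a phosphotyrosine-binding domain, had 14.1 to 21.5 and 21.8 to 47.4 CPM and rose 1.80-fold. Pofut2, which adds fucose to thrombospondin repeats, had 27.0 to 33.4 and 31.4 to 49.0 CPM and rose 1.32-fold, the smallest rise. Its arms gave log2 fold changes of 0.63, 0.37 and 0.18, with an adjusted p of 0.120 among arms.

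Falls were fewer and smaller. Hes1, a transcriptional repressor and a standard target of Notch, had 14.7, 10.1, 15.9 and 17.3 CPM in healthy libraries. It had 7.82, 8.30, 10.1 and 6.83 in the osteoarthritic arm, 6.78, 7.18, 7.90 and 6.34 in the HA arm, and 11.6, 11.02, 9.67 and 7.25 in the coacervate arm. Healthy replicate 2 lay within the pooled range and the other 3 above it. Hes1 fell by 0.80 ± 0.14 on the log2 scale, to 0.574 of the healthy level, with an adjusted p of 0.0495. AABR07053500.1, annotated as a pseudogene, fell to 0.624 of the healthy level without overlap, and its reads may be shared with a parent gene.

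The deepest fall was in a gene of osteoclast fusion. LOC103690326 (rn6 chromosome 7, 78732904 to 78741588) is described in the deposited table as dendritic cell-specific transmembrane protein, the protein that lets osteoclast precursors fuse. It had 19.98, 16.3, 15.0 and 22.6 CPM in healthy libraries. It had 12.5, 9.84, 13.0 and 10.6 in the osteoarthritic arm, 12.5, 13.9, 8.77 and 9.48 in the HA arm, and 9.72, 8.39, 5.73 and 8.53 in the coacervate arm. Every pooled library was below every healthy one and the coacervate arm was lowest. It fell by 0.87 ± 0.15 on the log2 scale, to 0.548 of the healthy level, with an adjusted p of 0.0495. By arm it was -0.69, -0.73 and -1.19.

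The row named Dcstamp lies on the same chromosome and strand, 78649875 to 78650906, and the 2 rows may share reads. It had 5.49 to 6.70 CPM in healthy and 2.23 to 5.73 in pooled libraries, a log2 fold change of -0.72 ± 0.19 with an adjusted p of 0.206. Ocstamp, a second fusion gene, had 4.55, 4.37, 4.62 and 5.22 CPM in healthy libraries and 1.63 to 3.90 in pooled ones, without overlap. Its value was -0.92 ± 0.20 with an adjusted p of 0.108. Acp5, the tartrate-resistant phosphatase used to stain osteoclasts, had 812, 826, 840 and 922 CPM in healthy libraries and 339 to 805 in pooled ones, also without overlap. Its value was -0.62 ± 0.14 with an adjusted p of 0.125.

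Other osteoclast genes were nearer to healthy. Ctsk, cathepsin K, was at -0.42 ± 0.21, and the receptor gene Tnfrsf11a at -0.02 ± 0.17. Of 15 tested genes of the osteoclast list, which does not hold LOC103690326, none passed. Of these, 12 were lower and 3 higher, and the median was -0.16. Of the lower ones 3 had an unadjusted p under 0.05, and Ocstamp and Acp5, described above, were among them. The summed CPM of the list was 4329 to 5412 in healthy and 3360 to 4993 in pooled libraries, and no member was at 0 counts. The part of bone content in these values was not tested.

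**Figure D4:**
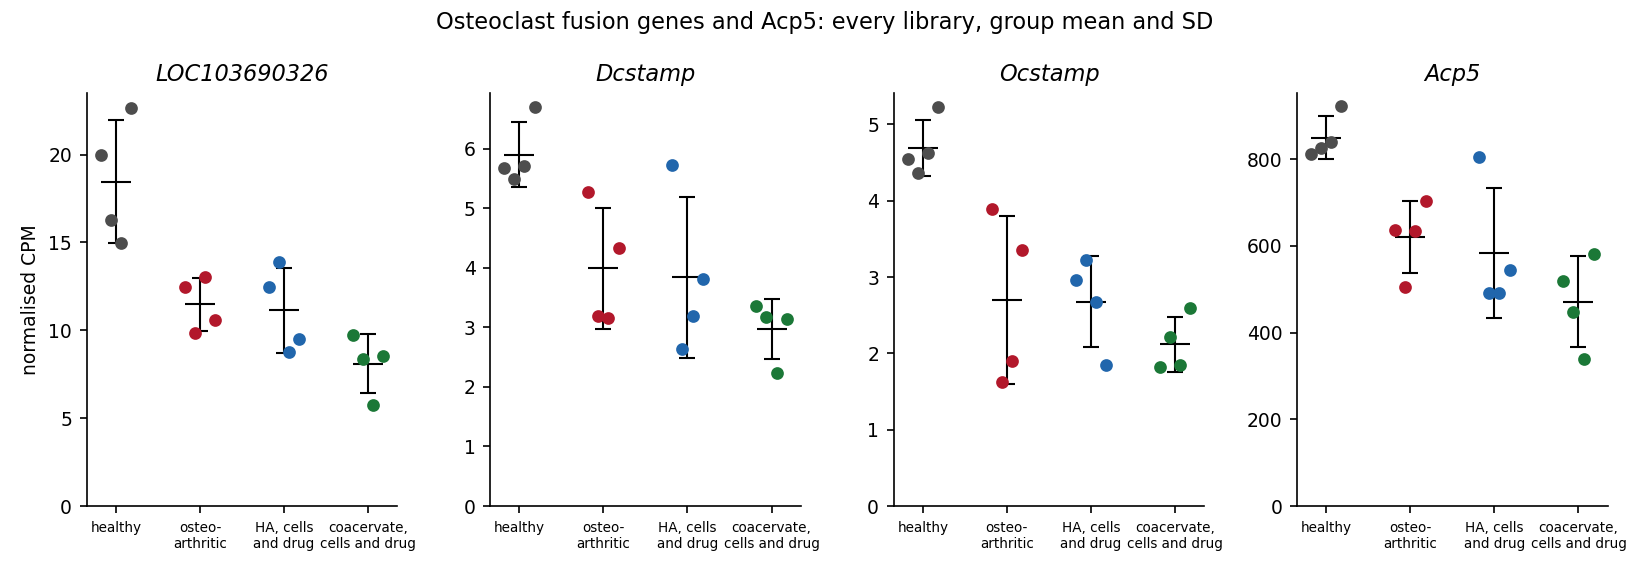
Normalised CPM of LOC103690326, Dcstamp, Ocstamp and Acp5 in every library (points) by group, with the group mean and SD. Healthy points are above all others for LOC103690326, Ocstamp and Acp5, and only LOC103690326 passed the test.

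Genes that define cartilage did not pass. Col2a1 was at 0.09 ± 0.26, Acan at 0.13 ± 0.29 and Sox9, the chondrocyte transcription factor, at -0.25 ± 0.27. Of 25 tested cartilage matrix genes 15 were higher and 10 lower, with a median of 0.03, and by arm 0.19, 0.23 and -0.18. Of the higher ones 5 had an unadjusted p under 0.05, against 4.16% of all tested genes, and none of the lower ones did. Comp, cartilage oligomeric matrix protein, which tendon also makes, was the only non-overlapping gene of that list. It had 219, 271, 275 and 199 CPM in healthy libraries and 306 to 706 in pooled ones, a log2 fold change of 0.83 ± 0.19 with an adjusted p of 0.125. By arm it was 0.75, 0.77 and 0.97. Prg4, lubricin, which coats the joint surface, was at 1.04 ± 0.32 (adjusted p = 0.307), with osteoarthritic replicates 2 and 3 inside the healthy range of 286 to 422 CPM. Of 12 hypertrophic chondrocyte genes none passed and 11 were lower, with a median of -0.18, and by arm -0.04, -0.17 and -0.27. Col10a1, their usual marker, was at -0.22 ± 0.37, and by arm at 0.02, 0.06 and -0.74.

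Some genes around Sik1 shared its direction without passing. Per1, a clock gene also induced by cAMP and glucocorticoids, was at -0.96 ± 0.28 with an adjusted p of 0.282. Its CPM was 78.9 to 114 in healthy libraries, 22.3 to 48.6 in the osteoarthritic arm, 21.9 to 49.3 in the HA arm and 31.5 to 153 in the coacervate arm. Errfi1, a feedback inhibitor of the EGF receptor, was at -0.998 ± 0.30 (adjusted p = 0.282) and by arm at -1.39, -1.34 and -0.26. For both, the highest of all libraries was coacervate replicate 3. Among 17 circadian clock genes none passed, 11 were higher and 6 lower, with a median of 0.03. Only 1 of them, a lower one, had an unadjusted p under 0.05. Of 15 glucocorticoid-responsive genes none passed, 11 were lower and 4 higher, with a median of -0.25, and by arm -0.20, -0.42 and 0.01. An unadjusted p under 0.05 was found for 4 of the lower and 2 of the higher ones. Of 24 NR4A and immediate early genes none passed, 17 were lower and 7 higher. The median was -0.13, and by arm -0.10, -0.19 and 0.02.

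Several lists of other cell types leaned lower with no member passing. All 21 skeletal muscle genes were lower, none at an unadjusted p under 0.05. Their median was -0.29, though by arm it was -0.61, -0.73 and 0.38. Their share of counts was 1.01% ± 0.142 (SD, n = 4) in healthy and 0.857% ± 0.589 (SD, n = 12) in pooled libraries (exact permutation test, two-sided, p = 0.652). Without coacervate replicate 3 the difference, pooled minus healthy, went from -0.152 to -0.309 percentage points (exact permutation test, two-sided, p = 0.0344). Of 19 B cell genes 17 were lower, with a median of -0.28. Of 16 platelet and megakaryocyte genes 15 were lower (median -0.27), and of 15 adipocyte genes 13 (median -0.28). In each of these lists 3 of the lower genes had an unadjusted p under 0.05. By arm the medians were -0.58, -0.15 and -0.15 (B cell), -0.37, -0.23 and -0.21 (platelet), and -0.06, -0.47 and -0.16 (adipocyte). Of 11 annexin genes 10 were higher, 6 at an unadjusted p under 0.05, with a median of 0.29, and by arm 0.39, 0.45 and 0.05. Of 41 ribosomal protein rows 39 were higher, with a median of 0.19, and by arm it was 0.48, 0.11 and -0.03. When osteoarthritic replicates 2 and 3 were left out, the ribosomal median was -0.07.

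**Figure D5:**
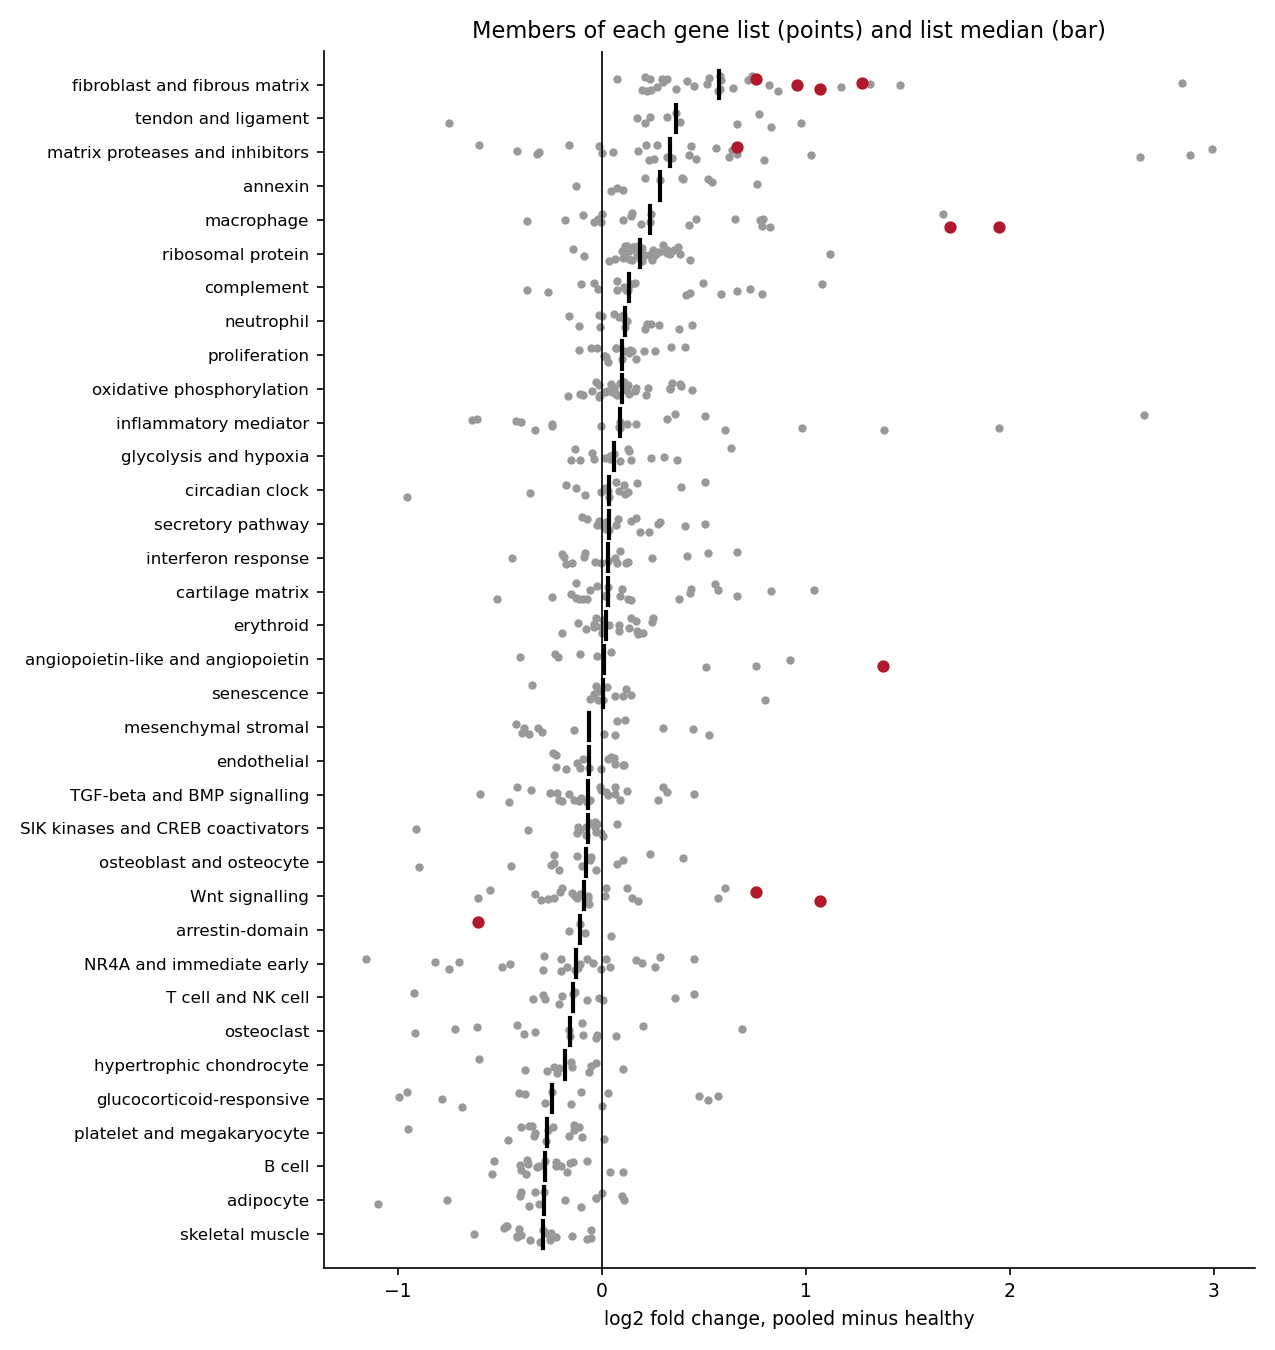
Log2 fold change (pooled minus healthy) of every tested member of the 35 gene lists (points) with the list median (bar), larger red points marking members that passed. The fibroblast and fibrous matrix list lies wholly above 0 and the skeletal muscle list wholly below it, and most list medians are near 0.

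Foxc2, a forkhead transcription factor, was just short of passing, and its groups met without overlapping. It had 4.02, 3.39, 3.77 and 6.53 CPM in healthy libraries and 1.09 to 3.39 in pooled ones, a log2 fold change of -1.03 ± 0.20 with an adjusted p of 0.0541. Gpr171, a receptor of lymphocytes and neurons, was at -0.76 ± 0.15 with the same adjusted p. Tfpi, the tissue factor pathway inhibitor, did not overlap either, at 79.4 to 102 CPM in healthy and 52.8 to 72.0 in pooled libraries, with -0.40 ± 0.08 and an adjusted p of 0.0633. Rbp4, Vtn and Stard10 had the lowest log2 fold changes of the genes named here, -2.96, -3.34 and -2.63. Each rested on healthy replicate 3: without it they were -0.12, 0.09 and -0.21.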

How the data were processed

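RNA of rat knee cartilage was measured in 16 libraries, 4 in each of 4 groups given by the sample titles. Per the labels' protocols, libraries were made from polyadenylated RNA by a dUTP strand-marking method and sequenced from both ends. Per the submitters' processing notes, genome build rn6 was used with StringTie 2.1.6, HISAT2 2.2.1 and cutadapt 1.9, and also edgeR and DESeq2, with no roles stated. The counting tool, annotation version and strand setting are not given in the sources used here, so the values of overlapping genes and of near copies are uncertain. Per the file headers, the deposited table holds counts, which the authors left unnormalised, and FPKM values, which the authors scaled to gene length and library size.

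Genes with at least 1 FPKM in at least 4 libraries were tested on the counts with edgeR 4.0.16's quasi-likelihood test (R 4.3.3, TMM scaling). The 4 group means were fitted together, the contrast was the mean of the 3 arms minus healthy with equal weights, and p-values were adjusted by Benjamini and Hochberg with a threshold of 0.05. The arms were compared with an F test in the same fit. Levels are CPM relative to the TMM-adjusted total of tested genes. The log2 levels of lists had a prior count of 2. The procedure was tested on simulated data. Alternatives were 2 other scalings, 2 filters, haemoglobin genes left out, robust spread, 2 groups, a replicate block, the treated arms only, DESeq2 1.42.0, limma 3.58.1 with a pseudocount of 1 or 0.1, and libraries left out. The fit without osteoarthritic replicates 2 and 3 and healthy replicate 3 was chosen after seeing the data. No 2 libraries of the same group agreed within sampling noise, and libraries of different groups were not compared in this way. Counting intervals are not given, since fragments carry no molecular identifiers.

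The comparison, its genes and the 35 gene lists were chosen with earlier results of these data known. Named genes were, among those that passed and did not overlap with a mean FPKM of at least 3, up to 12 largest rises and falls. Fewer than 12 rises and no fall met this rule. Added were the 5 smallest p in each direction, Dpt, Angptl1, Sik1, Arrdc3, 11 panel genes given whatever their p, up to 3 passing members of each list, and up to 6 passing genes with the smallest p among arms. Genes with placeholder or repeated symbols were left out of the largest changes and smallest p. Foxc2, Gpr171 and Sik1 came in by their small p. LOC103690326, LOC102553715, AABR07053500.1, Crabp2 and the other genes named that did not pass, outside the panel, were chosen after their values were seen. The lists not described with the results had no member that passed. Their medians were 0.03 (interferon response), 0.11 (neutrophil), -0.14 (T cell and NK cell), 0.02 (erythroid), -0.06 (endothelial) and -0.08 (osteoblast and osteocyte). The others were -0.06 (mesenchymal stromal), -0.07 (TGF-beta and BMP signalling), 0.00 (senescence), 0.10 (proliferation), 0.03 (secretory pathway), 0.10 (oxidative phosphorylation) and 0.06 (glycolysis and hypoxia). Promoter windows are RefSeq's for GRCr8, found for 15 of the 21 genes that passed or were singled out, and gene coordinates of the count table are rn6. Python 3.11.15 was used for windows and figures.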

Additional observations from a re-analysis of the deposited data

Results flagged for a closer look

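Among 232 sets of 4 libraries, 15 (6.47%) held 1 library far from the other 3 by Dixon's 95% limit. For independent sets chosen beforehand, chance gives about 1 in 20. Some genes here, Rbp4, Vtn and Stard10 among them, were chosen after their values were seen, and all sets share the same libraries. The share therefore cannot be set against that rate. Of the 15 sets, 5 were in healthy replicate 3 and 1 in healthy replicate 4. In healthy replicate 3, Rbp4 was at 399 CPM beside 13.0 to 16.9 in the other healthy libraries, Vtn at 92.8 beside 1.71 to 2.61, and Stard10 at 96.8 beside 4.44 to 6.32. Sox9 was at 12.8 there beside 6.45 to 7.15, and Col1a1 at 12432 beside 7751 to 8244. Tfpi in healthy replicate 4 was at 102 CPM beside 79.4 to 82.2. In the osteoarthritic arm, Apoe was at 2648 CPM in replicate 4 beside 1263 to 1393, and Pid1 was low in replicate 2, at 29.4 beside 45.5 to 47.4. In HA replicate 2, Ctsl was at 308 CPM beside 205 to 211, Gpx7 at 19.2 beside 14.5 to 15.2, and Scimp at 21.3 beside 7.16 to 9.20. Col2a1 in HA replicate 3 was at 3069 CPM beside 1989 to 2080, and haemoglobin genes took 10.6% of counts in HA replicate 1 beside 11.6% to 11.7%. In the coacervate arm, Dpt was at 138 CPM in replicate 3 beside 56.4 to 68.6, and Il1b at 18.6 in replicate 1 beside 9.08 to 10.3.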

How the results depend on the processing

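The count of 20 genes moved with most choices, while their direction did not, in fits that reuse most of the same libraries. It was 20 with RLE size factors and 30 with upper quartile scaling. It was 4 with haemoglobin genes left out (none lower, against 4 of 20) and 4 with robust spread. In these 2 fits the largest adjusted p of the 20 genes by edgeR was 0.0511 and 0.0513, against 0.0495 in the main fit. The count was 39 with no filter and 42 with filterByExpr, and 0 with 2 groups or with the HA and coacervate arms only. DESeq2 called 175, limma 1 and 10 with pseudocounts of 1 and 0.1. Without osteoarthritic replicates 2 and 3 it was 100 (85 higher), and without these and healthy replicate 3 it was 4. Leaving out 1 library gave 0 to 37: 0 without any healthy library, HA replicate 3 or coacervate replicate 2, 1 without HA replicate 1, 5 and 8 without osteoarthritic replicates 3 and 4, 6 without HA replicate 2 or coacervate replicate 1, 13 without coacervate replicate 3, and 37 without osteoarthritic replicate 1. With 0 calls, the smallest adjusted p was between 0.0631 and 0.152 and 708 to 1051 genes had an unadjusted p under 0.05. With a replicate block no gene passed either (0, and 0 list members). Same-numbered libraries did not deviate together: 4 of 24 correlations were over 0.1 and the median was -0.03, so the numbers were not taken to pair libraries.

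The count among arms, 0, became 567 with DESeq2, 1 with limma at either pseudocount, 1 without osteoarthritic replicates 2 and 3 with or without healthy replicate 3, and 0 to 589 with 1 library left out, 589 being without osteoarthritic replicate 1. The 49 non-overlapping genes became 108 in the treated arms only, 81 and 160 in those 2 reduced sets, and 50 to 106 with 1 library left out, where fewer libraries make separation easier. The 9 list members that passed became 1 with haemoglobin genes left out or robust spread, 0 with 2 groups or the treated arms only, 44 with DESeq2, 1 and 4 with limma, 36 and 1 in the reduced sets, and 0 to 15 with 1 library left out. The difference in haemoglobin share, 0.04 percentage points, ran from -0.608 to 0.662 with 1 library left out, below 0 in 6 of these. That in muscle share, -0.15, ran from -0.309 to -0.0978 and passed the exact test without coacervate replicate 3. Il1b turned negative in the treated arms only (-0.095) and without osteoarthritic replicates 2 and 3 (-0.022), and ran from -0.080 without healthy replicate 2 to 0.262 with 1 library left out. Without healthy replicate 3, and also without osteoarthritic replicates 2 and 3, Vtn, Sox9 and Col10a1 turned positive (0.143, 0.196 and 0.240). With 1 library left out they ran from -3.73 to 0.087, -0.419 to 0.042 and -0.558 to 0.093, each highest without healthy replicate 3. Acan and Col2a1 ran from -0.038 to 0.302 and from -0.068 to 0.325, below 0 only without healthy replicate 4. The cause of these moves was not tested.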

Other observations

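In healthy replicate 3, 9 genes were at 5 CPM or more and at least 5 times their level in every other library, and no other library had such a gene. Beside Rbp4, Vtn and Stard10 they included Krt8, a keratin of simple epithelia, at 19.9 CPM against at most 3.42 elsewhere. They also included Apoc4, an apolipoprotein gene, at 11.5 CPM against at most 1.40, and Pcbd1, a dimerisation cofactor of a liver transcription factor, at 10.5 CPM against at most 2.00. Apoe was highest of the healthy libraries in that replicate, at 574 CPM.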
